A study of Mus musculus with 5 samples.

Results

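The Notch receptors, their ligands and their HES and HEY effectors were described in the mouse embryonic forebrain at E12.5 as 10 genes, Notch1, Notch2, Notch3, Dll1, Dll3, Jag1, Hes1, Hes5, Hes6 and Hey1. They were chosen by gene symbol from the 56196 rows of a deposited table of read counts, and all 10 passed the filter on low counts that left 13989 genes to test. Polyadenylated RNA of untreated C57BL/6 embryos was sequenced from 3 EedcKO and 2 wild-type samples, which the submitters call littermates. The product of Eed belongs to the Polycomb repressive complex that places methyl groups on lysine 27 of histone H3. The mutant name EedcKO comes from the labels, which state neither what drives the deletion nor which exons are removed. The comparison asked how loss of Eed bears on gene expression in the young forebrain.

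Notch signalling passes between touching cells. A ligand of the Delta or Jagged family on 1 cell binds a Notch receptor on its neighbour, the receptor is cut, and its intracellular part enters the nucleus, joins the DNA-binding protein RBPJ and switches on genes such as Hes1 and Hes5. In the embryonic forebrain the HES and HEY proteins repress proneural genes and keep radial glia, the neural stem cells, from becoming neurons, while newly committed cells make Delta ligands under the control of proneural factors.

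No Notch gene among the 10 passed the edgeR test between EedcKO and wild type. Of 62 other pathway genes tested, 2 rose, Neurog1 and Neurog2, proneural factors that switch on Delta genes. Another 4 fell, Dlk1, Cntn1, Dtx4 and Tle4. Of all tested genes 1.04% rose and 2.17% fell. None of these calls held without EedcKO 3 or with embryo sex as a covariate, where 0 of all genes passed. With edgeR's quasi-likelihood test, adjusted over 13989 genes at a threshold of 0.05, 0 of the 10 passed, where 448 genes, or 3.2% of all tested, did. At an unadjusted p under 0.05 there were 3 of the 10 (Hey1, Dll1 and Notch3), against 17.2% of all genes tested. DESeq2 called 1 of the 10, Hey1, and 3.44% of all 19266 genes with any count, a number taken before its own filter on low counts. The groups did not overlap for 4 of the 10 (Notch2, Notch3, Dll1 and Hey1), all higher in EedcKO, where 16.4% of all tested genes lay apart in that direction, 17.4% in the other and 33.8% in either. The 10 log2 fold changes ran between -0.18 for Hes5 and 0.74 for Hey1, with a median of 0.20, and the median of all tested genes was 0.01. Of the 10, 7 were above 0, against 51.6% of all tested genes, and 5 had a smaller fold change than the difference between the wild-type libraries, against 56.9%.

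These comparisons rest on a wild-type group of which 1 library stood with EedcKO, against its label, for Eed and HOX genes and with wild type for others. Eed had 251, 233 and 247 counts in EedcKO 1, 2 and 3, against 404 in wild type 1 but 238 in the library labelled wild type 2. Since exons that are not deleted still add to the count of the gene, this is an incomplete check. The 39 HOX genes, Polycomb targets that the forebrain normally keeps silent, summed to 85, 184 and 62 counts in EedcKO 1, 2 and 3, against 2 in wild type 1 and 134 in wild type 2 as labelled. Genes on the side of the label included Dlk1, with 310, 235 and 270 counts in EedcKO, against 932 in wild type 1 and 653 in wild type 2 as labelled, and Cntn1, with 87, 85 and 66 counts in EedcKO, against 157 and 158 in wild type. Both were among the genes called on these labels. Named genes took 4723794 to 4922228 counts per library. Xist and Y-linked genes marked EedcKO 2 and 3 as male and the other 3 libraries as female, so no wild type was male. The 5 forebrain markers read here (Lhx2, Emx2, Six3, Otx1 and Pax6) were present in every library, with summed CPM (counts scaled to library size and TMM factor) of 820 to 916 in EedcKO and 647 to 693 in wild type. Markers of surface epithelium, of skeletal muscle and of cortical hem and choroid plexus were highest in the library labelled wild type 2, while those of meninges and mesenchyme ran from 309 to 631 CPM in EedcKO and from 250.1 to 458 CPM in wild type. The 9 surface epithelium markers summed to 15.3 to 26.2 CPM in EedcKO, 19.6 in wild type 1 but 230.02 in the library labelled wild type 2. The 8 skeletal muscle markers summed to 9.495 to 16.0 CPM in EedcKO, 11.8 in wild type 1 but 68.6 in the library labelled wild type 2. Of the epithelial markers, Krt5 and Krt14 had no count in EedcKO 3 or wild type 1. The 11 markers of the cortical hem and choroid plexus, the signalling tissue at the medial edge of the cortex and the tissue it gives rise to, summed to 52.0 to 262 CPM in EedcKO, 185 in wild type 1 but 630 in the library labelled wild type 2.

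The sequence around each gene's start shows which of the 10 carry the letters of the pathway's DNA motifs, searched on both strands. RefSeq promoter windows (GRCm38.p6, the assembly of mm10) ran from 250 bases before to 50 bases after the start. They matched 8 of the 10 genes in 10 windows, and Hes1 and Hey1 were not matched. The core of the RBPJ motif, TGGGAA, lay in the window of Hes5 and in no other matched window, and 25.6% of all 32851 promoter windows hold it. The N box CACNAG, which HES proteins bind, lay in the windows of Notch1, Notch2, Notch3, Dll1 (only 14 bases after the start) and Hes6, and 42.5% of all windows hold it. The E box CACGTG lay in none of them, against 7.15% of all windows. The 250 bases before the start are given for Hes5 (chr4:154960673-154960922, plus strand), since it is the one with the RBPJ core, and for Notch3 (chr17:32166891-32167140, minus strand), the receptor with the largest difference. Starts are those of RefSeq and can differ from the annotated gene ends given for each gene. Capitals mark the RBPJ cores of Hes5, which begin 226 and 82 bases before the start, and the N boxes of Notch3, which begin 204 and 159 bases before it. A match is a description of the letters and not a binding site.
Hes5: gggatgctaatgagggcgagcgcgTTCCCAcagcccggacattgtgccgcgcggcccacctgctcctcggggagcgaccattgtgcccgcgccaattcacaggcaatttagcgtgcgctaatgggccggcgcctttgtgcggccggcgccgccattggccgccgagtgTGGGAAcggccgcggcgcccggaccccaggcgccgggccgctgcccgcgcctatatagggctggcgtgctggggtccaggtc
Notch3: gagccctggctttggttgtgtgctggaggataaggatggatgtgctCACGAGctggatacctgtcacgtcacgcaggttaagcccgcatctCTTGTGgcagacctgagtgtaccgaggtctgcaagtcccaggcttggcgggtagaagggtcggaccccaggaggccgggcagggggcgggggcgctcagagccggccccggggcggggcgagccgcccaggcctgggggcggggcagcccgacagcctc

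Ordered by TPM (a level scaled by gene length and by library), the effectors Hes6 and Hes5 and the ligand Dll1 were the 3 most abundant of the 10 in each of the 5 libraries, in that order, and Jag1 was the least abundant in each. Hes6 averaged 294 ± 9.44 TPM in EedcKO and 304 ± 11.1 TPM in wild type (SD, n = 3 and 2, as for all means here). Hes5 averaged 238 ± 14.3 TPM in EedcKO and 268 ± 24.4 TPM in wild type. Dll1 averaged 202 ± 5.24 TPM in EedcKO and 175 ± 0.753 TPM in wild type. In EedcKO the next 3 lay within their spread of each other, with Hes1 at 144 ± 17.5 TPM, Notch1 at 140.3 ± 9.94 TPM and Hey1 at 139 ± 21.8 TPM. Below them in EedcKO came Notch3 at 120.4 ± 13.6 TPM, Notch2 at 87.6 ± 5.45 TPM, Dll3 at 81.8 ± 2.48 TPM and Jag1 at 45.8 ± 9.29 TPM. The ranges of Notch2 and Dll3 overlapped in EedcKO. Hey1 stood lower in this order in wild type 1, at rank 9, against rank 6, 4 and 5 in EedcKO 1, 2 and 3. In the library labelled wild type 2 it was at rank 6, the same as in EedcKO 1.

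**Figure D1:**
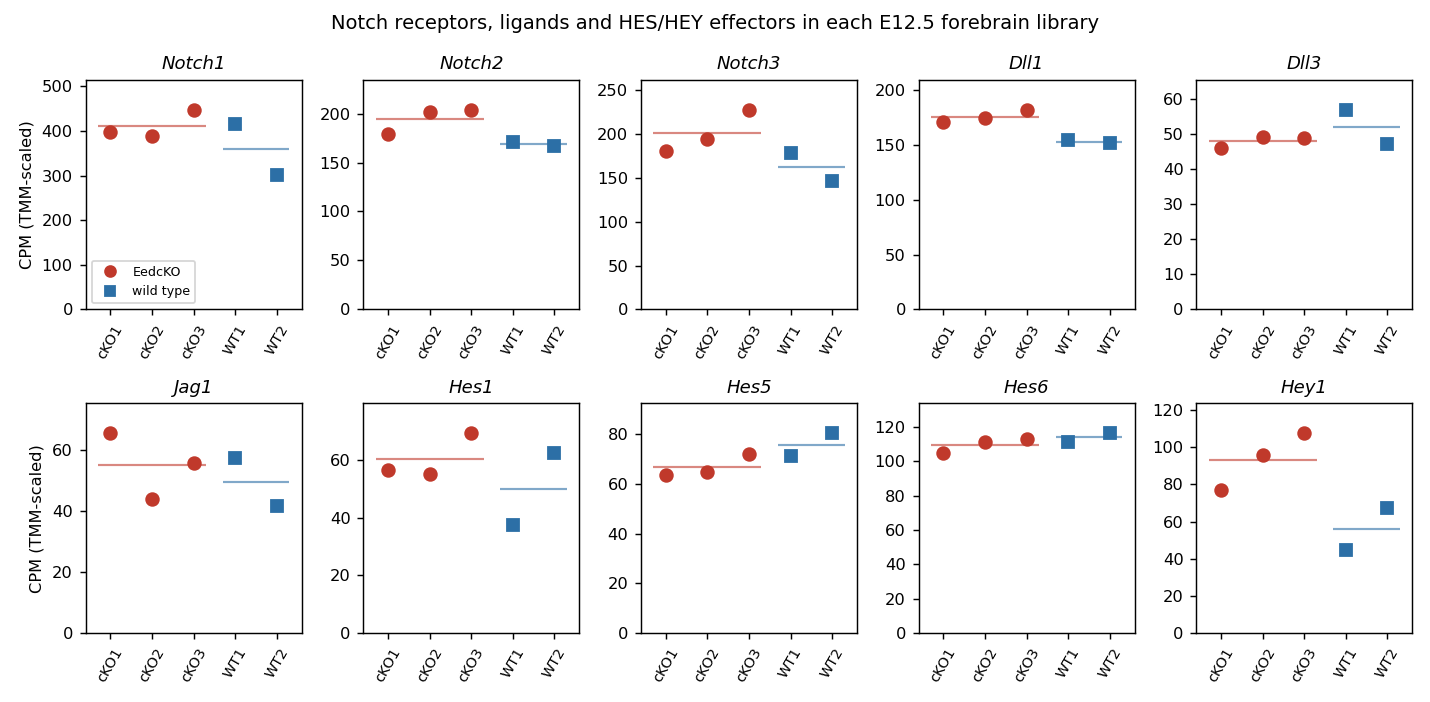
CPM of each of the 10 Notch genes (y axis, from 0) in each library (x axis), with EedcKO as red circles, wild type as blue squares and lines at the group means. Notch2, Notch3, Dll1 and Hey1 had all 3 EedcKO libraries above both wild-type libraries, and Hes1 had wild type 1 alone at the bottom.

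Among the receptors, Notch1 (chromosome 2, 26457903 to 26516663, minus strand, mm10), the best known receptor of radial glia, had 1908, 1889 and 2190 counts in EedcKO, against 1976 in wild type 1 but 1490 in the library labelled wild type 2. Wild type 1 lay among the EedcKO libraries, and the groups overlapped. Its log2 fold change was 0.20 (95% interval -0.15 to 0.55, edgeR adjusted p = 0.582), smaller than the log2 difference of 0.46 between the wild-type libraries. It was -0.01 without the library labelled wild type 2 and 0.43 without wild type 1 (edgeR adjusted p = 0.0502). Notch1 overlaps the gene 0610009E02Rik on the opposite strand at its 3′ end, and since the sources used here do not state whether counting used strand, their reads cannot be told apart there.

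Notch2 (chromosome 3, 98013527 to 98150361, plus strand), a receptor shared by neural progenitors and many other tissues, had 860, 975 and 997 counts in EedcKO, against 811 and 822 in wild type. All EedcKO libraries were above both wild types, by a small margin for EedcKO 1. The log2 fold change was 0.21 (95% interval -0.01 to 0.43, edgeR adjusted p = 0.311). Notch3 (chromosome 17, 32120820 to 32166852, minus strand), a receptor of progenitors and of the mural cells of blood vessels, had 180.4, 195 and 228 CPM in EedcKO, against 178 and 146 CPM in wild type. EedcKO 3 was the highest and EedcKO 1 stood just above wild type 1. Its log2 fold change was 0.31 (95% interval 0.0029 to 0.62, edgeR adjusted p = 0.284). It was 0.18 without the library labelled wild type 2 and 0.44 without wild type 1, and 0.16 with embryo sex as a covariate, a fit in which Notch2 was at 0.09. The 8 markers of pericytes and vascular smooth muscle, the mural cells, summed to 122 to 145 CPM in EedcKO and 150.3 to 154 CPM in wild type. Their groups overlapped for every marker, and none of them passed the test. Within these sums Acta2 had 2.86 to 11.2 CPM in EedcKO, against 3.15 in wild type 1 but 31.2 in the library labelled wild type 2. Rgs5 went the other way, with 38.9 to 43.7 CPM in EedcKO, against 52.2 in wild type 1 but 25.8 in the library labelled wild type 2. Notch3 overlaps an antisense gene, Gm17276, whose reads could not be told apart from it without strand.

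The sum of the 4 receptors was 340, 353 and 397 TPM in EedcKO, against 337 in wild type 1 but 278 in the library labelled wild type 2. Within that sum the shares differed little between libraries. Notch1 took 37.6% to 40.2% in EedcKO and 37.0% to 41.5% in wild type, and Notch3 took 32.1% to 34.2% in EedcKO and 31.2% to 31.5% in wild type. Notch4, which is known from endothelium and is not among the 10, took 3.73% to 4.75% over all 5 libraries.

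The 8 markers of neural progenitors, the cells that carry the receptors, summed to 1885 to 1972 CPM in EedcKO and 1590 to 1733 CPM in wild type. Of the 8, 2 rose, Slc1a3 and Pax6 (also counted as a forebrain marker), against 1.04% of all tested genes. Prom1, Sox9 and Fabp7, progenitor genes of the same list, had log2 fold changes of 0.32, 0.21 and 0.13 and did not pass. Nor did Sox2, Nes and Vim, with -0.07, 0.09 and 0.03. The groups overlapped for Sox2, Nes and Vim but not for 5 of the 8, all higher in EedcKO, against 16.4% of all tested genes. The part of these markers in the receptor values was not tested, and in bulk tissue fewer cells of a type and less RNA per cell cannot be told apart.

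**Figure D2:**
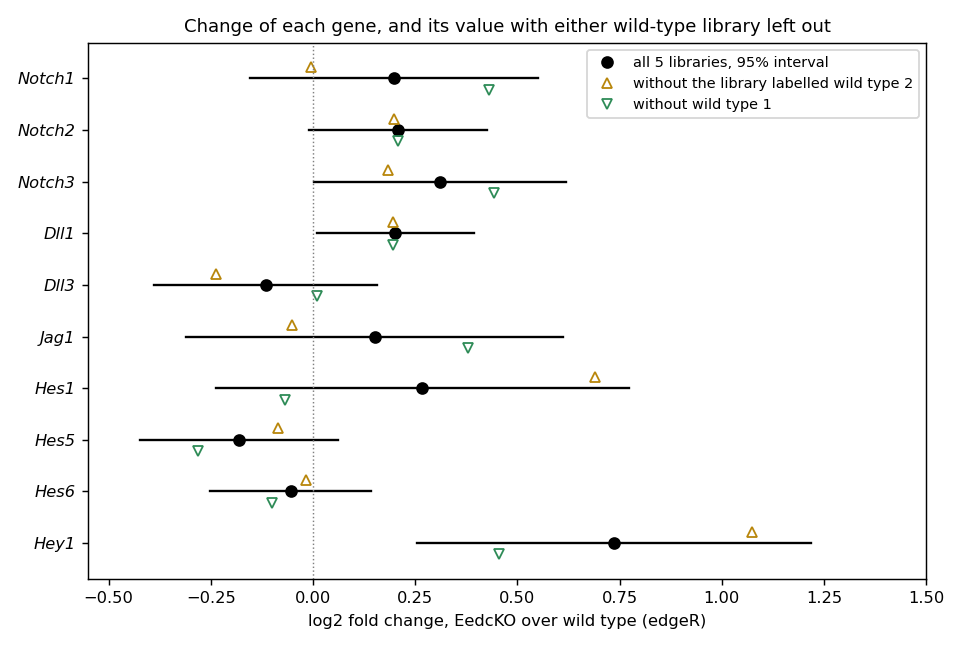
Log2 fold change of each gene, EedcKO over wild type, on the x axis (black points with 95% intervals from edgeR) and the same without the library labelled wild type 2 (upward triangles) or without wild type 1 (downward triangles). The triangles lay on opposite sides of 0 for Notch1, Dll3, Jag1 and Hes1, and both lay above 0 for Notch2, Notch3, Dll1 and Hey1.

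Among the ligands, Dll1 (chromosome 17, 15367354 to 15376872, minus strand), the Delta ligand that newly committed neuronal precursors present to their neighbours, differed by little but with little spread. It had 171, 175 and 182 CPM in EedcKO, against 154 and 152 CPM in wild type. Every EedcKO library was above both wild types, which lay closer together than for 93.5% of all tested genes. The log2 fold change was 0.20 (95% interval 0.01 to 0.39, edgeR adjusted p = 0.268), and it ran between 0.17 and 0.21 with any 1 library left out. Part of Dll1 overlaps A930024N18Rik on the opposite strand. The 8 neuron markers summed to 2361 to 2561 CPM in EedcKO and 2370.5 to 3007 CPM in wild type, and none of them passed. Of the 8, 1 had a log2 fold change above 0, against 51.6% of all tested genes. The groups did not overlap for 3 (Gap43, Stmn2 and Tubb3), all lower in EedcKO, against 17.4% of all tested genes. The part of the neuron markers in the value of Dll1 was not tested.

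Dll3 (chromosome 7, 28293553 to 28302238, minus strand), a divergent Delta protein that does not activate Notch on neighbouring cells, had 46.0, 49.3 and 48.9 CPM in EedcKO, against 57.0 in wild type 1 but 47.3 in the library labelled wild type 2. The groups overlapped, with wild type 1 alone at the top (log2 fold change -0.12, 95% interval -0.39 to 0.16, edgeR adjusted p = 0.701). Jag1 (chromosome 2, 137081456 to 137116644, minus strand), a ligand of the Jagged family, had 65.4, 43.8 and 55.6 CPM in EedcKO, against 57.2 and 41.8 CPM in wild type. Its EedcKO libraries spread more widely than the groups lay apart (log2 fold change 0.15, 95% interval -0.31 to 0.61, edgeR adjusted p = 0.775).

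With Dll4 and Jag2 added, the 5 ligands summed to 375, 366 and 383 TPM in EedcKO, against 378 and 343 TPM in wild type. Dll1 took 52.9%, 54.8% and 54.4% of this sum in EedcKO, against 46.4% and 50.8% in wild type. Jag2 took 8.43% to 9.26% in EedcKO and 12.0% to 12.7% in wild type. Its own log2 fold change was -0.43 (SE 0.10, edgeR adjusted p = 0.0681), and it is named here after its value was seen.

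The effectors differed among themselves. Hey1 (chromosome 3, 8663359 to 8667256, minus strand), a repressor of proneural genes that also acts in blood vessels, had the largest difference of the 10. It had 369, 464 and 525 counts in EedcKO, against 212 in wild type 1 but 332 in the library labelled wild type 2, or 76.9, 95.8 and 107 CPM in EedcKO, against 44.6 and 67.3 CPM in wild type. Every EedcKO library was above both wild types, and EedcKO 1, the female mutant, was the nearest to them. The log2 fold change was 0.74, or 1.67-fold (95% interval on the log2 scale 0.25 to 1.22, edgeR adjusted p = 0.112). It passed with DESeq2 (adjusted p = 0.0277) and, in edgeR, without the library labelled wild type 2 (log2 fold change 1.07, adjusted p = 0.0145), where 6.2% of 14232 genes passed. Without wild type 1 it was 0.46 (edgeR adjusted p = 0.166). Over all alternatives but DESeq2 and the fit without the library labelled wild type 2 the adjusted p ran between 0.108 and 0.552. With embryo sex as a covariate, where 0 genes of 13989 passed and 11.5% had an unadjusted p under 0.05, the log2 fold change was 0.46. The 10 endothelial markers summed to 259 to 353 CPM in EedcKO and 246 to 331 CPM in wild type, their groups overlapped for every marker and none passed.

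Hes1 (chromosome 16, 30064384 to 30067796, plus strand), the effector of radial glia whose level oscillates in dividing progenitors, had 272, 268 and 339 counts in EedcKO, against 179 in wild type 1 but 309 in the library labelled wild type 2. Wild type 1 was the lowest library by far, and the library labelled wild type 2 lay among the EedcKO libraries. The log2 difference between the wild-type libraries was -0.72, a gap that 9.73% of tested genes exceeded. The log2 fold change was 0.27 (95% interval -0.24 to 0.77, edgeR adjusted p = 0.610). It was 0.69 without the library labelled wild type 2 (edgeR adjusted p = 0.0506) and -0.07 without wild type 1 (edgeR adjusted p = 0.844), over a range of adjusted p from 0.0506 to 0.873 for all alternatives.

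Hes5 (chromosome 4, 154960923 to 154962371, plus strand), the effector most closely tied to Notch activity in the embryonic brain and the one with RBPJ cores in the window printed above, had 63.7, 64.8 and 72.0 CPM in EedcKO, against 71.3 and 80.3 CPM in wild type. EedcKO 3 lay just above wild type 1, so the groups overlapped. Its log2 fold change was -0.18 (95% interval -0.42 to 0.06, edgeR adjusted p = 0.442), the lowest of the 10. It was -0.09 without the library labelled wild type 2 and -0.28 without wild type 1. The gene overlaps Gm20421 on the opposite strand.

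Hes6 (chromosome 1, 91411483 to 91414038, minus strand) promotes neuronal differentiation and opposes Hes1, unlike the other effectors. It had 105, 111 and 113 CPM in EedcKO, against 111 and 116 CPM in wild type. The groups overlapped, with a log2 fold change of -0.06 (95% interval -0.25 to 0.14, edgeR adjusted p = 0.812).

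As shares of the summed TPM of 6 effectors (Hes1, Hes5, Hes6, Hey1, Hey2 and Heyl), Hey1 took 14.6%, 17.2% and 17.4% in EedcKO, against 9.03% and 11.2% in wild type. Hes5 took 28.9%, 27.8% and 28.0% in EedcKO, against 34.6% and 32.1% in wild type. The sum itself overlapped between the groups, at 792, 828 and 908 TPM in EedcKO, against 725 in wild type 1 but 889 in the library labelled wild type 2. These shares come from the counts that gave the values above and are no separate evidence.

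**Figure D3:**
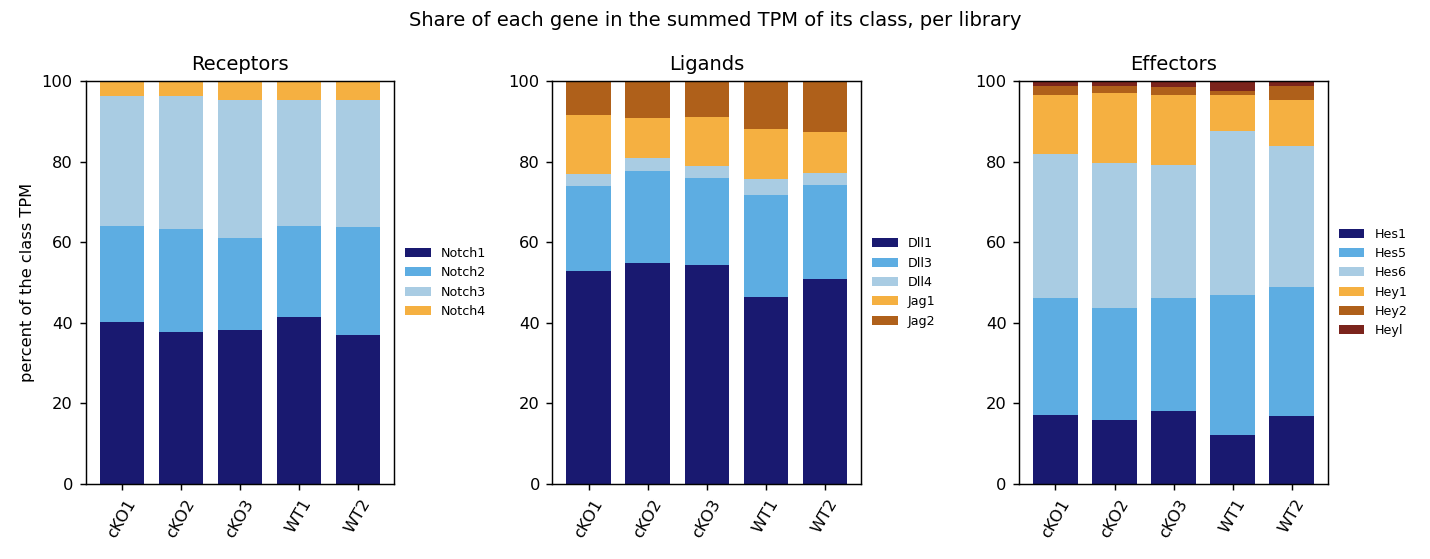
Share of each gene in the summed TPM of its class (y axis, percent) in each library (x axis, EedcKO left of wild type), for 4 receptors, 5 ligands and 6 effectors. The Hey1 share was 14.6% to 17.4% in EedcKO and 9.03% to 11.2% in wild type, while each receptor's share differed little between libraries.

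Hey2, a relative of Hey1 that is not among the 10, showed how far a value could rest on a single wild-type library, and it is named here after its values were seen. It had 83, 71 and 85 counts in EedcKO, against 34 in wild type 1 but 144 in the library labelled wild type 2. Both wild types lay outside the EedcKO range, on opposite sides. The log2 fold change was -0.15 (SE 0.50, edgeR adjusted p = 0.926), but 1.21 without the library labelled wild type 2 (edgeR adjusted p = 0.0313) and -0.84 without wild type 1 (edgeR adjusted p = 0.0351). Hes1, Hey1 and Hey2 were each higher in the library labelled wild type 2 than in wild type 1. So were Hes5, Hes6 and the feedback target Nrarp, by smaller log2 differences, while Heyl and Helt were lower there. The summed surface epithelium, skeletal muscle and cortical hem and choroid plexus markers were also higher in the library labelled wild type 2. The part of those tissues in these values was not tested.

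The other genes of the pathway were read from 5 lists of 66 genes, of which 62 were tested. Of these 2 rose and 4 fell, against 1.04% and 2.17% of all tested genes, and the median log2 fold change was 0.03. The proneural factors Neurog1 and Neurog2 rose, and they do not stand for proneural genes as a class. Neurog2, a factor of the cortex that activates Dll1, had 180.0, 223 and 211 CPM in EedcKO, against 111 and 125 CPM in wild type (log2 fold change 0.79, SE 0.12, edgeR adjusted p = 0.0202). Neurog1 had 34.4, 50.8 and 48.3 CPM in EedcKO, against 12.2 and 19.7 CPM in wild type (1.48, SE 0.25, edgeR adjusted p = 0.0276). For both, every EedcKO library was above both wild types. Beside them, the forebrain markers Otx1 and Pax6 rose, by log2 fold changes of 0.98 and 0.65 (edgeR adjusted p = 0.0166 and 0.0286). Of the other forebrain markers read here none passed. Six3 had a log2 fold change of -0.97 (edgeR adjusted p = 0.0630), with all EedcKO libraries below both wild types. Lhx2 had 0.39 (edgeR adjusted p = 0.254), with all EedcKO libraries above both wild types. For Emx2, at 0.09, the groups overlapped. The part of the forebrain markers in the Neurog1 and Neurog2 values was not tested.

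Of 8 tested other receptors and ligands, 2 fell and none rose, and their median log2 fold change was -0.75. The groups did not overlap for 6 of the 8, all lower in EedcKO, against 17.4% of all tested genes. At an unadjusted edgeR p under 0.05 there were 6 of the 8, against 17.2% of all tested genes. Dlk1, a Delta-like protein that lacks the receptor-activating domain and is imprinted, had 64.6, 48.5 and 55.2 CPM in EedcKO, against 196 and 132 CPM in wild type (log2 fold change -1.55, SE 0.18, edgeR adjusted p = 0.0112). Cntn1, a neuronal adhesion protein described as a non-classical Notch ligand, had 18.1, 17.5 and 13.5 CPM in EedcKO, against 33.0 and 32.0 CPM in wild type (-0.99, SE 0.17, edgeR adjusted p = 0.0276). Of 27 genes of ligand and receptor processing (glycosyltransferases, ubiquitin ligases, ADAM proteases and gamma-secretase), 1 fell and none rose, with a median of 0.05. It was Dtx4, a Deltex ubiquitin ligase, with 97.9, 79.5 and 94.1 CPM in EedcKO, against 140 and 132 CPM in wild type (-0.59, SE 0.11, edgeR adjusted p = 0.0343).

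Of 21 genes of the nuclear complex and its corepressors 1 fell and none rose, with a median of 0.05. It was Tle4, a Groucho corepressor that HES proteins recruit, with 108, 98.3 and 105 CPM in EedcKO, against 165 and 152 CPM in wild type (-0.61, SE 0.09, edgeR adjusted p = 0.0175). Of 7 other HES and HEY genes and feedback targets 4 had enough counts to be tested, and none passed. Those with the smallest p were Helt, with a log2 fold change of -0.56 (edgeR adjusted p = 0.447), and Heyl, with -0.42 (edgeR adjusted p = 0.449). Nrarp, a feedback inhibitor that Notch induces, is given here as a further target after its value was seen. It had 119, 113 and 127 CPM in EedcKO, against 119 and 128 CPM in wild type (log2 fold change -0.05, 95% interval -0.26 to 0.16, edgeR adjusted p = 0.844).

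**Figure D4:**
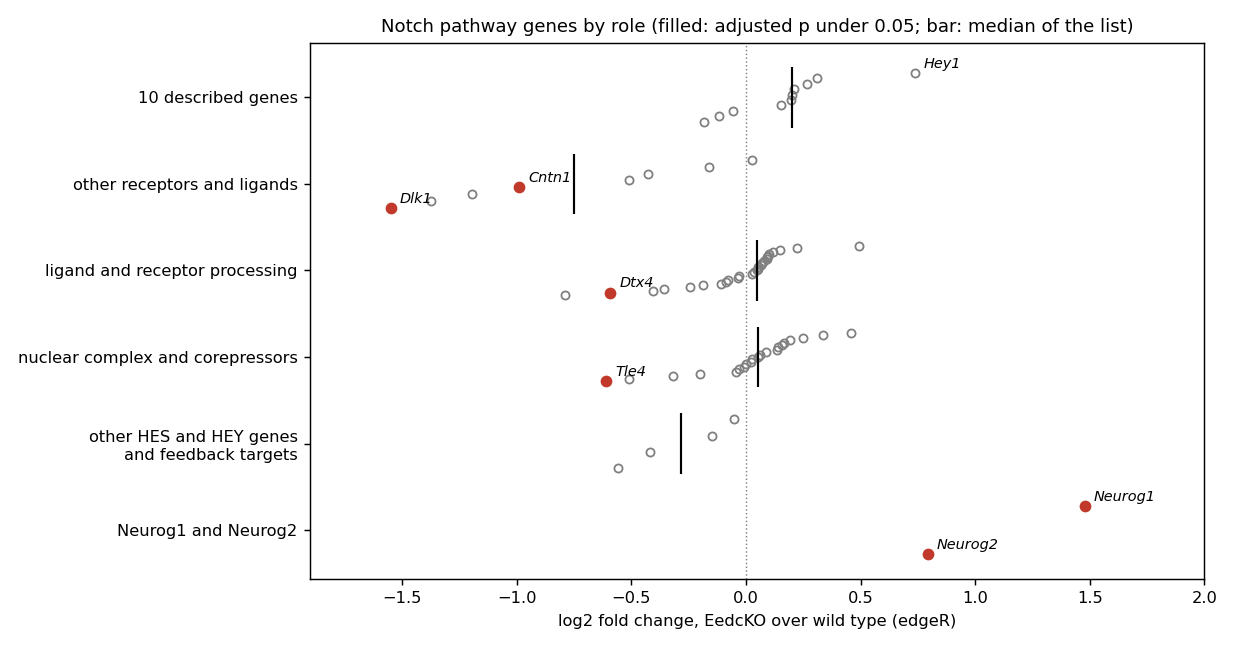
Log2 fold change, EedcKO over wild type (x axis), of the tested Notch pathway genes by role, with filled points for genes past an edgeR adjusted p of 0.05 and a bar at the median of each list but Neurog1 and Neurog2. None of the 10 described genes is filled, and the 6 filled genes are Dlk1, Cntn1, Dtx4, Tle4, Neurog2 and Neurog1.

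Some or all of these 6 calls were lost without any 1 EedcKO library, and none without either wild-type library. Without EedcKO 3 no gene of the 66 passed, nor did any of all 13891 genes tested, of which 13.6% had an unadjusted p under 0.05 in edgeR. Without EedcKO 2 Dlk1 alone of the 66 passed, beside 0.606% of all genes tested. Without EedcKO 1 Dlk1, Tle4, Neurog1 and Neurog2 passed, beside 1.89% of all. Without the library labelled wild type 2 all 6 passed, with Dner and Hey2 besides. Without wild type 1, where 7.02% of all genes passed, 4 of the 66 rose and 7 fell, all 6 among them. With embryo sex as a covariate none of the 66 passed, nor did any of all 13989 genes tested.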

How the data were processed

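The submitters' processing notes name HISAT2 2.2.0 and the build mm10. How reads were counted, on which annotation and with what use of strand, was not given in the sources used. Whole-number counts per gene, not normalized, and a separate table of TPM values were deposited by the authors. Of 56196 count rows, 28277 without a symbol, with 2.01% to 2.16% of the counts, were left out. Where several rows shared a symbol, a row was named only if it held 99% or more of the counts.

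Counts were tested in R 4.3.3 with edgeR 4.0.16 (filterByExpr, TMM, robust glmQLFit and glmQLFTest on the group alone), with Benjamini-Hochberg adjustment over 13989 genes. Standard errors are the log2 fold change over the square root of F, and 95% intervals use the fit's degrees of freedom. The script was tested on simulated data. Alternatives used DESeq2 1.42.0 and limma 3.58.1, among others. Gene coordinates come from the GENCODE annotation of mm10. Each difference between the wild-type libraries is on log2(CPM + 1). EedcKO 1 differs in sex from EedcKO 2 and 3, but no label says that every sample is a different embryo, so part of the spread behind the p-values may be technical. The replicate numbers in the titles are not stated to pair the libraries. The 10 genes and all lists were chosen with earlier results of these data known. Some genes of the proneural and forebrain marker lists are not reported here and enter no list count or sum. Named genes were the 10 and, of each other list, up to 4 past the threshold or else the 2 with the smallest p.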

Additional observations from a re-analysis of the deposited data

How the results depend on the processing

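All 10 genes kept their direction under every alternative that used all 5 libraries (RLE size factors, library size alone, DESeq2, no filter on low counts, a filter of 1 CPM in 2 libraries, limma-trend on TPM with pseudocounts of 1 and 0.1 or without a filter, the replicate block and embryo sex). With either wild-type library left out, 8 of 10 did. Leaving out 1 library moved the log2 fold change of Notch1 between -0.0059 and 0.43, of Dll3 between -0.24 and 0.0088, of Notch3 between 0.18 and 0.44, of Hes5 between -0.28 and -0.09, of Hes6 between -0.10 and -0.02, of Jag1 between -0.051 and 0.38, of Hes1 between -0.068 and 0.69 and of Hey1 between 0.46 and 1.07. Over these fits the number of the 10 past the threshold was 0 to 1, and DESeq2 also gave 1, Hey1 (0.74). Hey2 changed sign to 0.16 with limma-trend on log2(TPM + 1), with or without a filter, to 0.19 with a pseudocount of 0.1 and to 0.036 with the replicate block. It ran between -0.84 and 1.21, and Nrarp between -0.12 and 0.0085, with 1 library left out.

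Of the other pathway genes 0 to 4 rose and 0 to 7 fell with 1 library left out. Under limma-trend on log2(TPM + 1) 2 fell. With a pseudocount of 0.1, 1 rose and 2 fell, and without a filter 0 rose and 0 fell. With embryo sex, 0 rose and 0 fell. With the replicate block 0 rose and 0 fell, and 0 of all tested genes passed, where edgeR had 2169 at an unadjusted p under 0.05. Of all genes, 448 as reported, 203, 152 and 42 passed under the 3 limma-trend settings, 0 with embryo sex and 0 to 1012 with 1 library left out. Deviations from the group means correlated at -0.009 for replicate number 1 and 0.127 for number 2. With 2 wild-type libraries these deviations mirror each other, so they cannot settle whether the numbers pair the libraries. The cause of these differences was not tested. Dll1 in wild type was 176 TPM with TMM scaling, against 175 as deposited. In the 250 bases before the start alone, 21.6%, 6.02% and 36.7% of promoters held the RBPJ core, the E box and the N box. A fit with a lone wild-type library assumes that it varies as EedcKO does, and the fit with sex sets EedcKO 1 against wild type. Only 2 wild-type libraries limit all of these comparisons.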

Other observations

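Ratios of TPM within a library set pairs of these genes side by side, and the pairs were chosen after the values were seen. Hey1 over Hes5 was 0.503, 0.617 and 0.623 in EedcKO 1, 2 and 3, against 0.261 and 0.350 in wild type 1 and 2. Dll1 over Dll3 was 2.51, 2.39 and 2.52 in EedcKO, against 1.83 and 2.17 in wild type. The EedcKO libraries were above both wild types in both ratios, which was the reason these pairs were chosen, so no test is given.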
